A study of Mus musculus with 6 samples.

Results

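The genes described here are 10 transcription factors of adipocyte commitment and differentiation, Pparg, Cebpa, Cebpb, Cebpd, Klf4, Klf5, Klf15, Srebf1, Ebf1 and Zfp423. They were taken by symbol from the 26264 gene symbols of the count data, and all 10 were found, each with at least 6 reads in every library. The samples are immortalized brown preadipocytes of the mouse, a line made with the SV40 large T antigen from the stromal vascular fraction of wild-type brown adipose tissue. The cells were exposed to FGF8 (5.5 nM) for 48 h before differentiation or were left untreated, and bulk RNA was sequenced in 6 libraries, 1 for each treatment at each of 3 time points. D0 was the end of the pretreatment, D3 followed 2 days of induction and the first day on differentiation medium, and D7 followed 7 days on that medium, which is day 9 when counted from the end of the pretreatment. Untreated and FGF8 cells went through the same induction and differentiation, and FGF8 was given only before it. By the paper's methods, the induction medium contained dexamethasone, IBMX, indomethacin, insulin, triiodothyronine and rosiglitazone. The differentiation medium that replaced it kept only the last 3, so dexamethasone was present during induction alone. The labels call the controls untreated where the series design names a vehicle, and their growth protocol speaks of primary cells from white fat, whereas titles and design name the immortalized brown line. With 1 library per condition no difference between 2 libraries has a replicate check.

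Adipocyte differentiation runs through a cascade of transcription factors. C/EBPβ and C/EBPδ are induced first by the hormones of the induction medium, with Krüppel-like factors such as KLF4 and KLF5 acting beside them, and they switch on PPARγ and C/EBPα, which maintain each other and activate the genes of the fat cell. ZFP423 and EBF1 mark cells committed to the lineage, KLF15 acts later and answers to glucocorticoids, and SREBP1, the product of Srebf1, drives fatty acid synthesis. The comparison asks how the messenger RNAs of these factors stood after FGF8 and how they then moved through differentiation.

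The clearest difference was Klf4, an early factor that induces Cebpb, which was 3.43-, 5.16- and 3.55-fold lower in the FGF8 libraries of D0, D3 and D7. Cebpd was 2.92- and 3.67-fold lower at D3 and D7, Klf15 was 2.45-fold lower at D7, and Cebpb was 2.04-fold higher at D0. These 4 members were the ones that reached a 2-fold difference, at a mean of at least 20 normalised counts, between FGF8 and untreated cells at any time point. Their upstream sequences are shown for that reason. Each was read from the GRCm39 genome as the stretch of the 250 bases before the GENCODE M39 canonical start site that lies outside annotated exons, 5′ to 3′ on the gene's strand, and it ends 1 base before that start for Cebpb and Cebpd, 63 bases before it for Klf4 and 75 bases before it for Klf15. Capitals mark matches to the motifs named in the next paragraph.
Cebpb, chr2:167530585-167530834, plus strand: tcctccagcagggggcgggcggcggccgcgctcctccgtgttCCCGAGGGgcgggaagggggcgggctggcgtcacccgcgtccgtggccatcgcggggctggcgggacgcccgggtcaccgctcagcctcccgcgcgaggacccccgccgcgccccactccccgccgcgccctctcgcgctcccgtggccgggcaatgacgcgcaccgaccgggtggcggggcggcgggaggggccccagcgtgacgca
Cebpd, chr16:15705085-15705149, plus strand: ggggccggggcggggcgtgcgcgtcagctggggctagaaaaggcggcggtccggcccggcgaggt
Klf4, chr4:55532529-55532716, minus strand: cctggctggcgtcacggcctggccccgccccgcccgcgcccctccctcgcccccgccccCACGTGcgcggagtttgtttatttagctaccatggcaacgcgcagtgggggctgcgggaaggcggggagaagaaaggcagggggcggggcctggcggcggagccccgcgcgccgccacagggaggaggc
Klf15, chr6:90439196-90439366, plus strand: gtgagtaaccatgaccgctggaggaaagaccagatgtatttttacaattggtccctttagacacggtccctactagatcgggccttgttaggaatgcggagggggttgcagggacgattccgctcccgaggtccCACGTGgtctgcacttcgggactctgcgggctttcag

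Both strands of the whole 250-base window were searched for 6 motifs, and the same windows of 21770 protein-coding genes gave the shares. The E-box CACGTG, a site that SREBP1 and other basic helix-loop-helix factors can bind, was found in Klf4, starting 191 bases before the start site, and at 111 and 55 bases before it in Klf15, and it occurs in 6.26% of all windows. The core letters CCCNNGGG of EBF sites were found in Cebpb (12.8% of all windows) and also in Klf5. The C/EBP letters TTGCNNAA matched in Ebf1 alone among the members (9.34% of all windows), and the KLF letters CACACCC matched in Pparg alone (7.52%). No member held the nuclear receptor half-site AGGTCA (13.1%) or the cAMP response element TGACGTCA (1.70%), and Cebpd held none of the 6. The member windows were rich in G and C, between 57.2% for Klf15 and 81.6% for Cebpb, where the median over all windows was 53.2%.

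In GRCm39 Pparg lies at chr6:115337675-115468268, Cebpa at chr7:34818718-34821353, Cebpb at chr2:167530835-167532338, Cebpd at chr16:15705150-15708895, Klf5 at chr14:99536086-99552473, Klf15 at chr6:90438998-90452220 and Ebf1 at chr11:44508138-44898918, all on the plus strand. On the minus strand lie Klf4 at chr4:55527139-55532528, Srebf1 at chr11:60089913-60113407 and Zfp423 at chr8:88388438-88687289. The canonical transcripts of the 3 Cebp genes have a single exon, whereas that of Srebf1 has 19. Exons of opposite-strand genes overlap 20.7% of the exonic bases of Cebpb (Peds1, listed in the counts under its older symbol Tmem189) and 15.0% of those of Cebpd (Spidr). The kit kept strand, but the strand setting of the counting is not given in the sources used here, so how these shared bases were counted cannot be told.

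The libraries held 16403254 to 38551551 counts. Values below are normalised counts, that is, reads per gene scaled by the median-of-ratios factors of DESeq2, and a difference between 2 libraries is that of log2(normalised count + 1) with a 95% exact binomial interval, which covers counting error only. Across all genes the median difference between FGF8 and untreated cells was at most 0.083. The labelled cell type was checked against markers. Adipocyte markers (Fabp4, Adipoq, Plin1, Cidec, Lep) summed to 166 and 182 normalised counts at D0 and to 214641 or more later, and Ucp1, the thermogenic uncoupling protein, reached 91306 in untreated and 99587 in FGF8 cells at D7. Zic1, a marker of brown precursors, was at 150 and 136 normalised counts at D0 but at 0 in both libraries of D3 and at 2.13 or less at D7. The macrophage marker Adgre1 was at 0 in all 6 libraries, but the 6 listed macrophage markers together summed to between 44.8 and 153 normalised counts. Of these, Cd68 rose from D0 to D3 in the edgeR fit described further on (1.23, adjusted p = 0.0356), and Csf1r did not (-0.11). The fitted FGF8 differences were -0.01 for Cd68 and -2.50 for Csf1r, and neither passed. The 5 myoblast markers summed to 8.81, 86.5 and 651 normalised counts in untreated and to 8.96, 185 and 1178 in FGF8 cells at D0, D3 and D7, nearly all of it Des, an intermediate filament of muscle, which rose from D0 to D3 in the edgeR fit described further on (4.01, adjusted p = 0.00352). Of the others on that list, Myod1 and Myf5 were at 0 in every library and Myog and Pax7 at 3.82 or less, and the part of Des-expressing cells in the results was not tested.

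**Figure D1:**
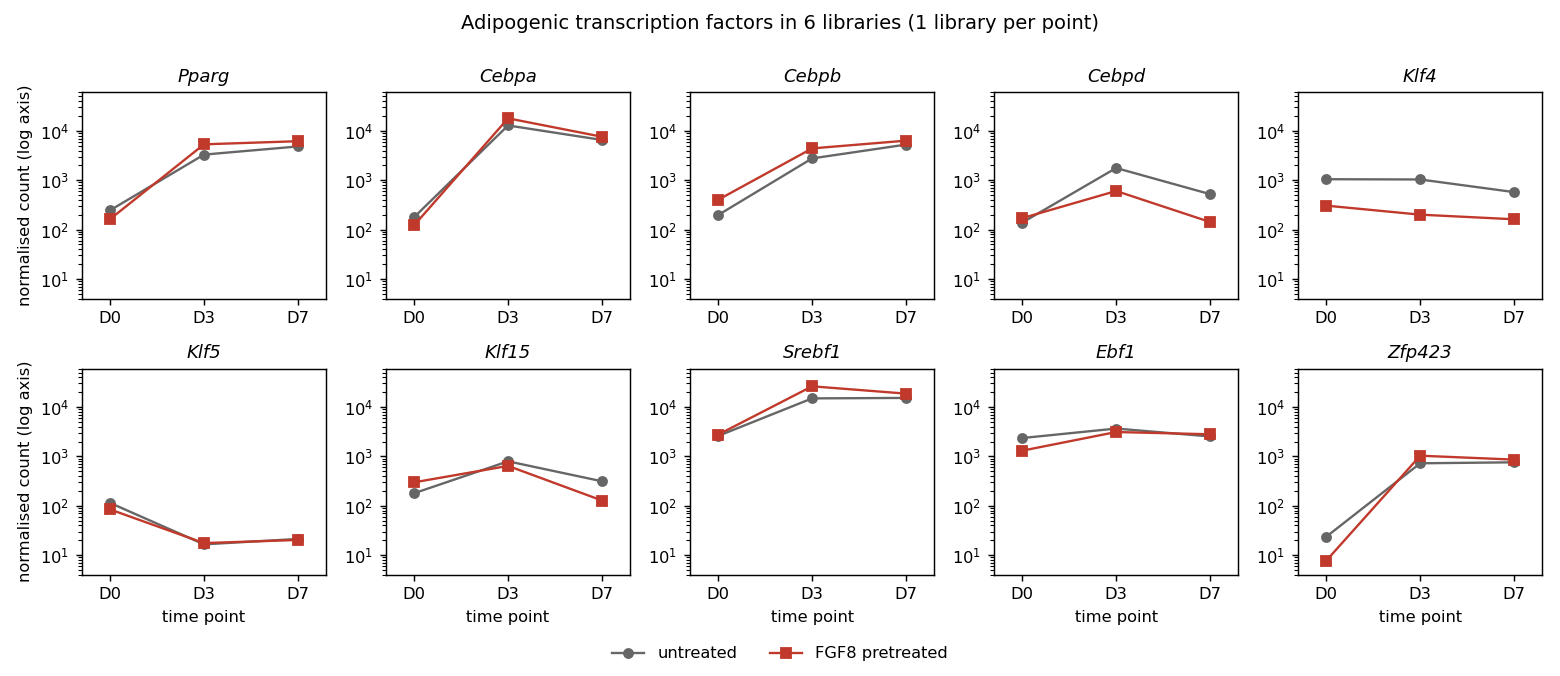
Normalised counts (log axis) of the 10 transcription factors at D0, D3 and D7, evenly spaced on the x axis, in untreated (grey circles) and FGF8-pretreated (red squares) cells, 1 library per point. The Klf4 lines lie apart at all 3 time points, the Cebpd lines part at D3, and the Pparg, Cebpa and Zfp423 lines cross between D0 and D3.

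Pparg and Cebpa, the pair that establishes and keeps the fat cell state, both stood lower after FGF8 at D0 and higher at D3 and D7. Pparg, the nuclear receptor required for fat cell formation, had 245.3 normalised counts at D0, 3305 at D3 and 4838 at D7 in untreated cells. In FGF8 cells it had 162.6, 5339 and 6176. The FGF8 library was thus the lower one at D0 and the higher one later, by -0.59 (interval -0.94 to -0.25), 0.69 (0.63 to 0.76) and 0.35 (0.31 to 0.40) on the log2 scale. Cebpa, which activates Pparg and many metabolic genes, had 177.7, 12872 and 6538 normalised counts in untreated cells and 121.6, 17949 and 7590 in FGF8 cells. Its differences were -0.54 (-0.95 to -0.15) at D0, 0.48 (0.45 to 0.51) at D3 and 0.22 (0.17 to 0.26) at D7. None of these 6 differences reached 2-fold. In bulk RNA a smaller share of cells that differentiate and less RNA per cell cannot be told apart, and that holds for every level given here.

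Zfp423 and Ebf1, the factors of commitment, both stood lower in FGF8 cells at D0 and came close to or above the untreated level later. Zfp423, a zinc finger protein of preadipocyte determination, had only 16 reads at D0 in untreated cells and 6 in FGF8 cells, or 23.5 and 7.68 normalised counts. It then stood at 725.5 and 759.5 in untreated cells and at 1033 and 861.7 in FGF8 cells at D3 and D7. The D0 difference of -1.50 has a counting interval from -3.25 to -0.19 and, with a mean under 20, was not counted under the 2-fold rule, whereas D3 (0.51, 0.37 to 0.65) and D7 (0.18, 0.06 to 0.31) rest on 570 to 1472 reads in each library. Ebf1, which can induce Cebpa and Pparg, was already abundant at D0. Untreated cells had 2356, 3667 and 2536 normalised counts of it and FGF8 cells had 1306, 3119 and 2808. The FGF8 library was 1.80-fold lower at D0 (-0.85, -0.97 to -0.74), closer at D3 (-0.23, -0.30 to -0.17) and slightly higher at D7 (0.15, 0.08 to 0.21).

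Cebpb and Cebpd, the early C/EBP factors, differed in opposite directions at D3 and D7. Cebpb had 196.8, 2767 and 5280 normalised counts in untreated cells and 400.7, 4414 and 6338 in FGF8 cells, so that the FGF8 library was the higher one at each time point. Its difference was largest at D0 (1.02, 0.73 to 1.33), where it was 0.98 with size factors computed within the pair, and was 0.67 (0.60 to 0.74) and 0.26 (0.22 to 0.31) at D3 and D7. Cebpd had 138.1, 1769 and 521.7 normalised counts in untreated cells and 170.3, 605.8 and 142.3 in FGF8 cells. At D0 the libraries differed by less than counting error (0.30, -0.09 to 0.70), and at D3 and D7 FGF8 cells were lower by -1.54 (-1.67 to -1.42) and -1.87 (-2.12 to -1.63). Of the opposite-strand neighbours, Tmem189 differed between FGF8 and untreated cells by 0.15, 0.30 and 0.11 at D0, D3 and D7, and Spidr had 1607, 1041 and 870 normalised counts in untreated cells and 2233, 752 and 927 in FGF8 cells.

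Klf4, Klf15 and Klf5 had 3 different courses. Klf4 had 1049, 1036 and 574.3 normalised counts in untreated cells and 306.0, 200.8 and 161.8 in FGF8 cells. All 3 untreated libraries were above all 3 FGF8 libraries, with differences of -1.77 (-1.99 to -1.56), -2.36 (-2.57 to -2.17) and -1.82 (-2.06 to -1.60). Klf15, an inducer of the glucose transporter gene Slc2a4, had 179.2, 795.5 and 313.0 normalised counts in untreated cells and 298.3, 642.3 and 127.6 in FGF8 cells. FGF8 cells were the higher ones at D0 (0.73, 0.41 to 1.06) and the lower ones at D3 (-0.31, -0.46 to -0.16) and D7 (-1.29, -1.57 to -1.03). Klf5, which acts on the Pparg promoter after C/EBPβ and C/EBPδ, was the least abundant member per kilobase at D3 and D7, with 114.6, 16.5 and 21.3 normalised counts in untreated and 84.5, 17.5 and 20.3 in FGF8 cells. Its FGF8 differences of -0.43, 0.08 and -0.06 all lay within counting error, and with 13 to 30 reads at D3 and D7 a difference as large as 1.17 at D3 would lie inside the interval.

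Srebf1, the lipogenic factor, had 2597, 14976 and 15300 normalised counts in untreated cells and 2756, 26319 and 18681 in FGF8 cells. The libraries differed by less than counting error at D0 (0.09, -0.01 to 0.18) and most at D3 (0.81, 0.78 to 0.84), with a smaller excess in FGF8 cells at D7 (0.29, 0.26 to 0.31).

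**Figure D2:**
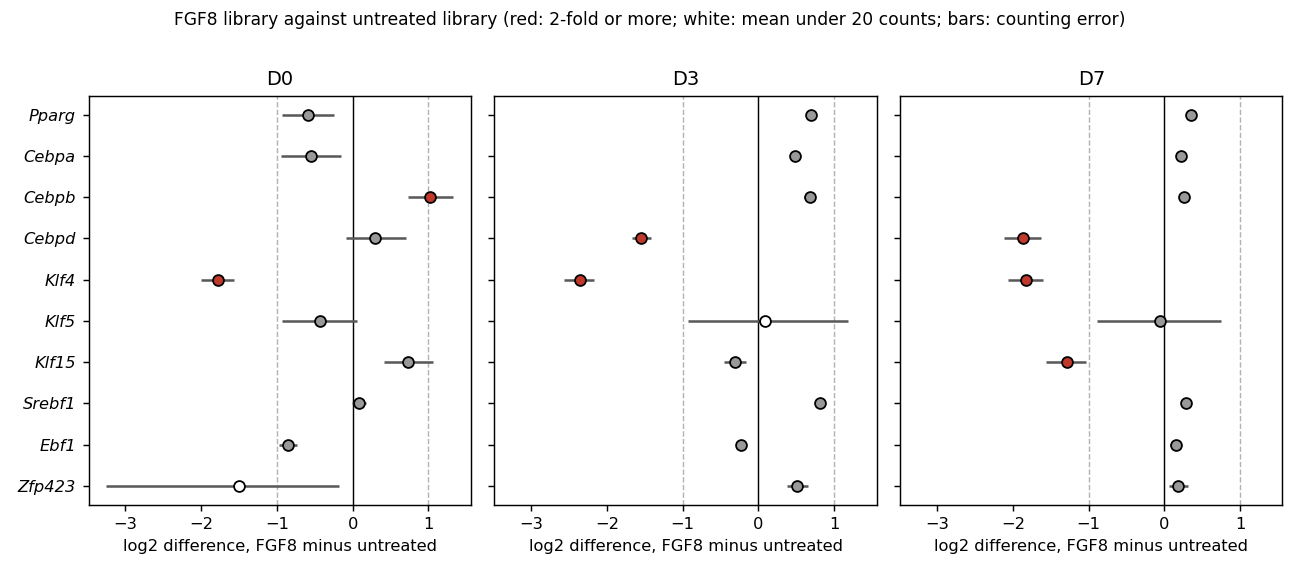
Log2 difference of normalised counts, FGF8 minus untreated library, for the 10 genes at D0, D3 and D7, with 95% counting intervals; red points are 2-fold or more, white points have a mean under 20 normalised counts and dashed lines mark 2-fold. Klf4 is red in every panel, Cebpd at D3 and D7, Klf15 at D7 and Cebpb, on the higher side, at D0.

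Counted by the 2-fold rule, 1 of the 9 members tested at D0 was higher in FGF8 cells (Cebpb), where 7.27% of all genes tested were, and 1 was lower (Klf4), where 10.8% were. At D3 none of 9 was higher (3.8% of all genes) and 2 were lower (12.1%), and at D7 none of 10 was higher (1.12%) and 3 were lower (8.74%). Zfp423 at D0 and Klf5 at D3 were not tested for their low means. The median over the tested members was -0.43, 0.48 and 0.16 at D0, D3 and D7, against 0.05, 0.08 and 0.08 over all genes tested.

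For a difference shared by the 3 time points, the quasi-likelihood test of edgeR was run in 1 additive fit over the 6 libraries, in which the time points stand in for replicates and 2 residual degrees of freedom remain. Klf4 was the member that passed, with a fitted log2 fold change of -2.02 (SE 0.199), an unadjusted p of 0.000178 and an edgeR adjusted p of 0.0445, in a comparison where 1.08% of the 13868 genes tested were called lower and 0.0144% higher. Its fold change stayed between -2.13 and -1.81 in all alternatives, but the adjusted p ran from 5.25e-13 with DESeq2 to 0.237. With median-of-ratios factors in edgeR it was 0.0514 and no gene at all was called by that fit, though 3406 had an unadjusted p under 0.05. Leaving out the untreated D3, FGF8 D3, untreated D7 or FGF8 D7 library gave edgeR adjusted p-values of 0.237, 0.148, 0.189 and 0.193, and leaving out either D0 library kept the call. Cebpb (0.61, SE 0.177, adjusted p = 0.150) and Cebpd (-1.13, SE 0.465, adjusted p = 0.230) did not pass the edgeR test. A library left alone at its time point is fitted by its own day term and adds nothing to the shared FGF8 difference. Leaving out either library of a time point is therefore the same check and not a separate one. Without either D0 library the fitted change of Cebpd was -1.73, and Cebpd was called there, unlike in the main fit. Leaving out D0 drops the time point where its difference was 0.30. The adjusted p-values of the other 7 members lay between 0.316 and 0.981 in the edgeR fit.

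Preadipocyte markers, like Klf4, were lower in FGF8 cells at each time point. Summed over Pdgfra, Dlk1, Cd34, Ly6a, Pdgfrb and Dpp4 they came to 130291, 37585 and 29734 normalised counts in untreated cells and to 29271, 10254 and 6869 in FGF8 cells. By the 2-fold rule 5 of the 6 were lower at D0, all but Cd34, where 10.8% of all genes tested were. At D3 and at D7 5 of 5 tested were lower, where 12.1% and 8.74% of all genes were. In untreated cells the marker sum also fell from D0 to D3, while Klf4 stayed near its D0 level. Of the endothelial markers, Kdr and Tek made the untreated D0 sum of 1620 normalised counts, against 71.7 in FGF8 cells, while Pecam1 and Cdh5, which define that cell type, were at 12.8 or less in every library. The summed macrophage markers ranged from 118 to 153 in untreated and from 44.8 to 113 in FGF8 libraries. The part of any of these in the differences of Klf4, Cebpd and Klf15 was not tested.

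Most members differed more between D0 and D3 than between the treatments. In untreated cells 7 of the 10 members were at least 2-fold higher at D3 than at D0, where 19.5% of all genes tested were, and Klf5 was lower, where 15.5% were. In FGF8 cells 8 of 10 were higher (24.1% of all genes) and Klf5 again was lower (22.0%). Cebpa stood 72.4-fold higher in untreated and 148-fold higher in FGF8 cells, Zfp423 30.9- and 135-fold, Pparg 13.5- and 32.8-fold, Cebpb 14.1- and 11.0-fold, Cebpd 12.8- and 3.56-fold, Srebf1 5.77- and 9.55-fold and Klf15 4.44- and 2.15-fold. The FGF8 arm thus had the larger ratio for Cebpa, Zfp423, Pparg and Srebf1 and the smaller one for Cebpb, Cebpd and Klf15, differences that follow from the D0 and D3 values above and were not tested. Ebf1 reached 2-fold in the FGF8 arm alone (2.39-fold, against 1.56-fold), and Klf4 was at about its D0 level in untreated cells (-0.02, interval -0.16 to 0.13) and at -0.61 (-0.86 to -0.35) in FGF8 cells. Klf5 was 6.92- and 4.81-fold lower at D3.

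In the same edgeR fit, with the arms standing in for replicates, 7 members rose from D0 to D3 where 26.4% of all genes did, and Klf5 fell by 2.48 (adjusted p = 0.00921) where 19.5% did. The fitted log2 fold changes were 6.71 for Cebpa (SE 0.358), 5.87 for Zfp423 (SE 0.523), 4.41 for Pparg (SE 0.369), 3.66 for Cebpb (SE 0.239), 2.94 for Srebf1 (SE 0.261), 2.68 for Cebpd (SE 0.584) and 0.96 for Ebf1 (SE 0.272). Their edgeR adjusted p-values ran from 0.00238 for Cebpa to 0.0404 for Ebf1. Klf15 (1.58, SE 0.498, edgeR adjusted p = 0.0541) and Klf4 (-0.26, SE 0.235, 0.407) did not pass. Pparg, Cebpa, Cebpb, Srebf1 and Zfp423 were called in all 9 alternatives. Without the untreated D3 or the FGF8 D3 library the calls of Cebpd (edgeR adjusted p = 0.0931 and 0.0897), Klf5 (0.0814 and 0.0848) and Ebf1 (0.143 and 0.185) were lost, and that of Ebf1 also without the FGF8 D0 library (0.0628). Klf15 passed without either D0 or either D7 library. It also passed without the filter on low counts (edgeR adjusted p = 0.0367) and with DESeq2's Wald test (adjusted p = 0.00886). Of the fits that used all 6 libraries, these last 2 called 8 members higher.

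**Figure D3:**
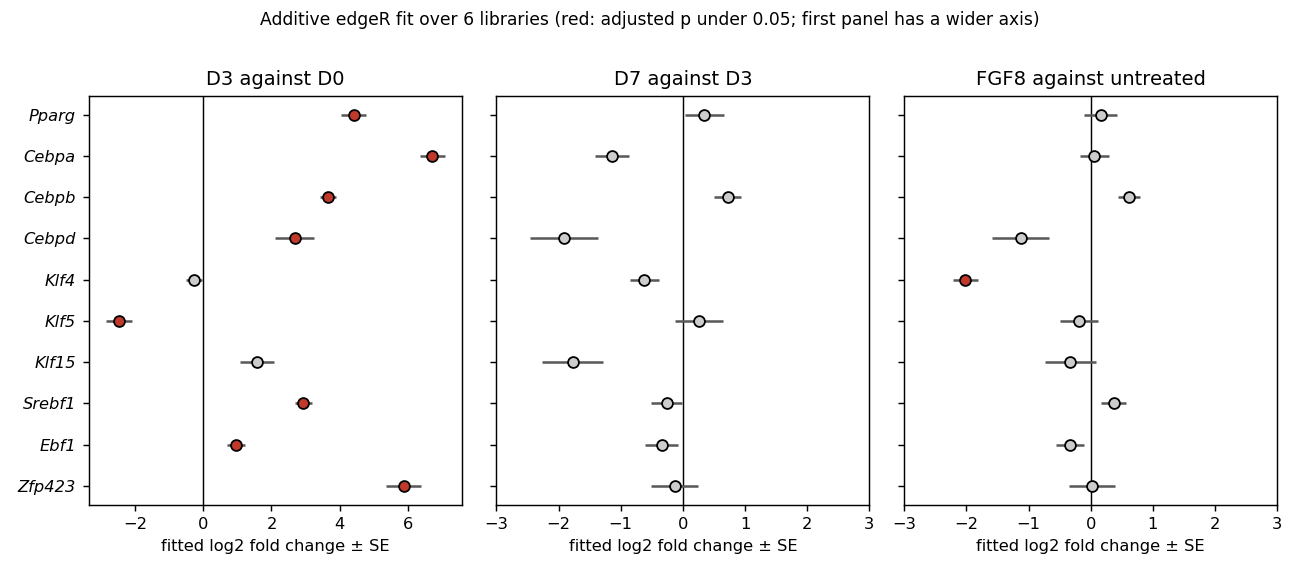
Fitted log2 fold changes ± SE of the 10 genes from the additive edgeR fit over 6 libraries, for D3 against D0 (wider axis), D7 against D3 and FGF8 against untreated; red points have an adjusted p under 0.05. The 7 called members with a positive change lie to the right in the first panel, none is red in the second and Klf4 is the red point of the third.

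Between D3 and D7 Cebpd and Klf15 stood at least 2-fold lower in both arms, while Pparg and Cebpb did not. In untreated cells none of 9 members tested was 2-fold higher (8.77% of all genes) and 2 were lower (4.42%), Cebpd by 3.39-fold (-1.76, -1.89 to -1.63) and Klf15 by 2.54-fold (-1.34, -1.52 to -1.17). In FGF8 cells none of 9 was higher (8.16%) and 3 were lower (5.4%), Cebpd by 4.26-fold (-2.08, -2.33 to -1.85), Klf15 by 5.03-fold (-2.32, -2.58 to -2.09) and Cebpa by 2.36-fold (-1.24, -1.28 to -1.21). Cebpa in untreated cells lay just under 2-fold (-0.98, -1.02 to -0.94) and past it, between -1.12 and -1.03, under the TMM and total-count scalings. Cebpb stood 1.91-fold higher in untreated and 1.44-fold higher in FGF8 cells, and Pparg 1.46- and 1.16-fold. Srebf1 was level in untreated cells (0.03, -0.002 to 0.06) and lower by 1.41-fold in FGF8 cells.

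No member passed edgeR's quasi-likelihood test for D7 against D3, in which 0.0577% of genes were called higher and 0.00721% lower and 2969 genes had an unadjusted p under 0.05. The fitted values were -1.91 for Cebpd (SE 0.547, edgeR adjusted p = 0.159), -1.77 for Klf15 (SE 0.496, 0.155), -1.14 for Cebpa (SE 0.279, 0.132) and 0.72 for Cebpb (SE 0.213, 0.168). DESeq2's Wald test on the same design called Cebpd (adjusted p = 0.0105), Klf15 (0.0130) and Cebpa (0.00772) lower. Without either D0 library, which is the same check of D7 against D3 in both cases, the fitted values changed little. They were -1.94 for Cebpd, -1.85 for Klf15, -1.13 for Cebpa and 0.70 for Cebpb. Each of these was called in that fit, which rests on D3 and D7 alone, unlike in the main one.

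Per kilobase of exon, the order of the members turned over with differentiation. At D0 Srebf1 led in both arms, with 441 normalised counts per kilobase in untreated and 468 in FGF8 cells, followed by Klf4 (333) in untreated cells and by Cebpb (266) in FGF8 cells, where Klf4 had 97.2 and came after Ebf1 (134). At D3 Cebpa led with 4883 and 6809 and at D7 Cebpb with 3511 and 4214, ahead of Srebf1 (2595 and 3169) and Cebpa (2480 and 2880). Neighbours in this order whose counting intervals overlap were Cebpd and Pparg and Klf15 and Klf5 in untreated cells at D0, Pparg and Cebpd and Zfp423 and Klf15 in untreated cells at D3, Cebpa, Cebpd and Klf15 and then Pparg and Klf5 in FGF8 cells at D0, and Cebpd and Zfp423 in FGF8 cells at D3.

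Within the C/EBP group Cebpb had the largest share at D0 and D7 and Cebpa at D3. Of the summed Cebpa, Cebpb and Cebpd level per kilobase, Cebpa took 28.7%, 67.9% and 40.5% in untreated cells and 12.9%, 68.7% and 40.4% in FGF8 cells at D0, D3 and D7, and Cebpb took 55.7%, 25.6% and 57.3% and 74.4%, 29.6% and 59.1%. The Cebpa shares of the arms thus nearly coincided at D3 and D7 and stood apart at D0. Cebpd made up 15.7%, 6.56% and 2.27% in untreated cells and 12.7%, 1.63% and 0.533% in FGF8 cells. The sum of the 3 was higher in FGF8 cells at each time point, at 358, 9905 and 7131 normalised counts per kilobase against 235, 7195 and 6130. The summed Klf4, Klf5 and Klf15 level went the other way, at 154, 154 and 72.5 in FGF8 against 379, 440 and 229 in untreated cells. Klf4 made up 87.8%, 74.8% and 79.7% of it in untreated cells and 63.2%, 41.4% and 70.8% in FGF8 cells, so that Klf15 was the leading KLF of the 3 in the FGF8 library of D3 (56.5%).

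**Figure D4:**
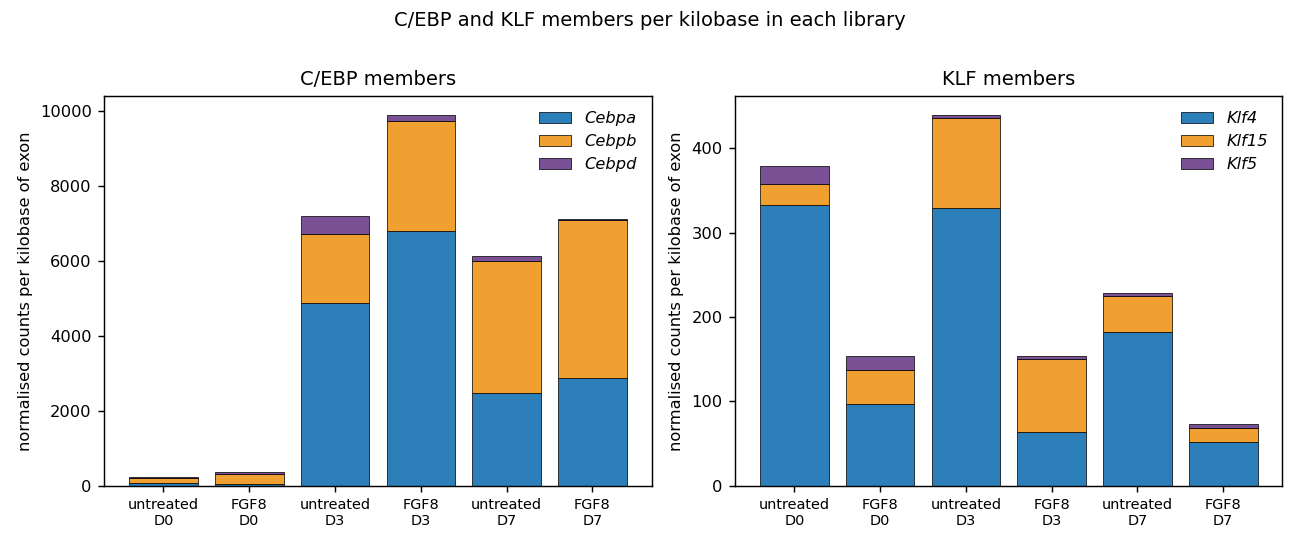
Normalised counts per kilobase of exon, stacked for the C/EBP members (left) and the KLF members (right) in each library, 1 library per bar. The C/EBP bars grow from at most 358 at D0 to 9905 in FGF8 cells at D3, and each FGF8 bar of the KLF panel is lower than the untreated bar beside it.

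Set against the untreated cells of D7, the FGF8 cells of D3, which differ from them in both treatment and time, had 1.03 (0.87 to 1.20) more Klf15 and 1.46 (1.42 to 1.49) more Cebpa on the log2 scale, and -1.51 (-1.72 to -1.32) for Klf4. Srebf1 (0.78, 0.76 to 0.81) and Zfp423 (0.44, 0.33 to 0.56) were also higher there, and Klf5 (-0.27, -1.11 to 0.54) lay within counting error. Pparg (0.14, 0.09 to 0.19), Cebpd (0.22, 0.07 to 0.36), Cebpb (-0.26, -0.31 to -0.21) and Ebf1 (0.30, 0.23 to 0.36) differed by 0.30 or less, though each interval excluded 0. Their untreated D7 and FGF8 D3 levels were 4838 and 5339 normalised counts for Pparg and 521.7 and 605.8 for Cebpd.

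Among 24 relatives of the members in the same families, 20 were tested at D0 and 5 were at least 2-fold higher in FGF8 cells, a rule that 7.27% of all genes tested met. Cebpg and Ddit3, C/EBP relatives that pair with other leucine zipper factors and take part in stress responses, were 3.06- and 4.49-fold higher at D0, with 1727 and 1253 normalised counts in untreated and 5291 and 5623 in FGF8 cells. The other 3, Ebf4, Klf8 and Klf12, had fewer than 100 normalised counts in both D0 libraries. Zfp521, the close relative of Zfp423 that restrains EBF1 and adipogenesis, was the 1 relative that was 2-fold lower at D0 (10.8% of all genes). It had 3292, 1679 and 653 normalised counts in untreated cells and 926, 465 and 185 in FGF8 cells, and its edgeR fitted log2 fold change was -1.86 (SE 0.124, adjusted p = 0.0445). That call was lost with median-of-ratios factors and without any 1 of the D3 or D7 libraries, where edgeR called 0 genes for the shared FGF8 difference, with 1497 to 3406 genes at an unadjusted p under 0.05. At D3 1 of 18 relatives was higher, Ppara (2.96-fold, 3.8% of all genes), and 5 were lower (12.1%), and at D7 none of 18 was higher (1.12%) and 2 were lower (8.74%).

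Of 14 other factors that favour adipogenesis, none was 2-fold higher with FGF8 at any time point, and 1, 2 and 1 were lower at D0, D3 and D7, which is near the 10.8%, 12.1% and 8.74% of all genes tested. Egr2, which works with KLF4 on Cebpb, was 2.29-fold lower at D3 and 6.54-fold lower at D7, with 2461 and 2376 normalised counts in untreated and 1073 and 363 in FGF8 cells. Of 11 factors that oppose adipogenesis, 5 were lower at D3 (12.1% of all genes tested), among them Gata2 (2.69-fold) and Zfp521 (3.61-fold), and their median difference was -0.76 against 0.08 over all genes tested. At D0 3 of 10 tested were higher (7.27%), led by Ddit3, and 1 was lower (10.8%), and at D7 2 of 10 were lower (8.74%).

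The genes these factors act on were compared in the same way. All 15 listed PPARγ and C/EBPα targets were at least 2-fold higher at D3 than at D0 in both arms. Of all genes tested, 19.5% in untreated and 24.1% in FGF8 cells were. All 15 also rose in the edgeR fit, as did 26.4% of all genes. At D3 their differences between FGF8 and untreated cells ran from 0.12 for Cfd, the adipokine adipsin, to 1.22 for Slc2a4, with a median of 0.82, and 4 of 15 were at least 2-fold higher, Slc2a4, Fabp4, Adig and Lipe, as were 3.8% of all genes tested. Fabp4, the fatty acid carrier of fat cells, had 162482 normalised counts in untreated and 334151 in FGF8 cells. By D7 the median was 0.19 and 1 of 15 was past 2-fold, Cfd, which was 3.56-fold lower in FGF8 cells with 150 normalised counts against 533, where 8.74% of all genes were lower. At D0 7 of the 15 could be tested, of which Lpl (4.07-fold) and Lipe (2.59-fold) were lower (10.8% of all genes) and Dgat2 was higher (7.27%). No target passed the edgeR test for a shared FGF8 difference, in which 13 of 15 fitted values were above 0. Their median was 0.43, against 0.039 over all genes tested.

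The 11 SREBP1 targets had a median difference of 0.73 at D3, where Srebf1 was at 0.81, and Scd1 (2.86-fold) and Pnpla3 (2.38-fold) were past 2-fold (3.8% of all genes). The median was -0.49 at D0, where 1 of 10 tested was lower (Acss2, 10.8% of all genes), and -0.07 at D7, where none was past 2-fold and Fasn, the fatty acid synthase, was at -0.63. None of the 5 genes of SREBP processing reached 2-fold between the treatments at any time point, with Mbtps2 at 0.97 at D0 and Insig1 at 0.90 at D3 the nearest.

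Cebpd and Klf15 both respond to glucocorticoids, and 7 other glucocorticoid-induced genes were compared with them. Between D3 and D7 5 of the 7 were at least 2-fold lower in each arm (4.42% of all genes in untreated and 5.4% in FGF8 cells), and the median change was -1.21 in untreated and -1.16 in FGF8 cells against -0.04 and -0.01 over all genes. Fkbp5, a standard reporter of the receptor, had 4522 and 963 normalised counts at D3 and D7 in untreated cells and 3743 and 914 in FGF8 cells, and Zbtb16 had 2297 and 542 and then 1894 and 587. These 2 therefore differed between the arms by -0.27 and -0.28 at D3 and by -0.07 and 0.12 at D7, while Cebpd stood at -1.54 and -1.87 and Klf15 at -0.31 and -1.29. Sgk1 and Errfi1 were the 2 of the 7 that were past 2-fold lower in FGF8 cells at D3 and D7, where 12.1% and 8.74% of all genes tested were. Sgk1 was also lower at D0 (10.8% of all genes) and in the shared edgeR fit (-1.34, SE 0.151, adjusted p = 0.0448). That call was lost in the same alternatives as that of Zfp521. The list's median was -0.27 at D3 and 0.08 at D7. The part of the glucocorticoid response in the differences of Cebpd and Klf15 was not tested.

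**Figure D5:**
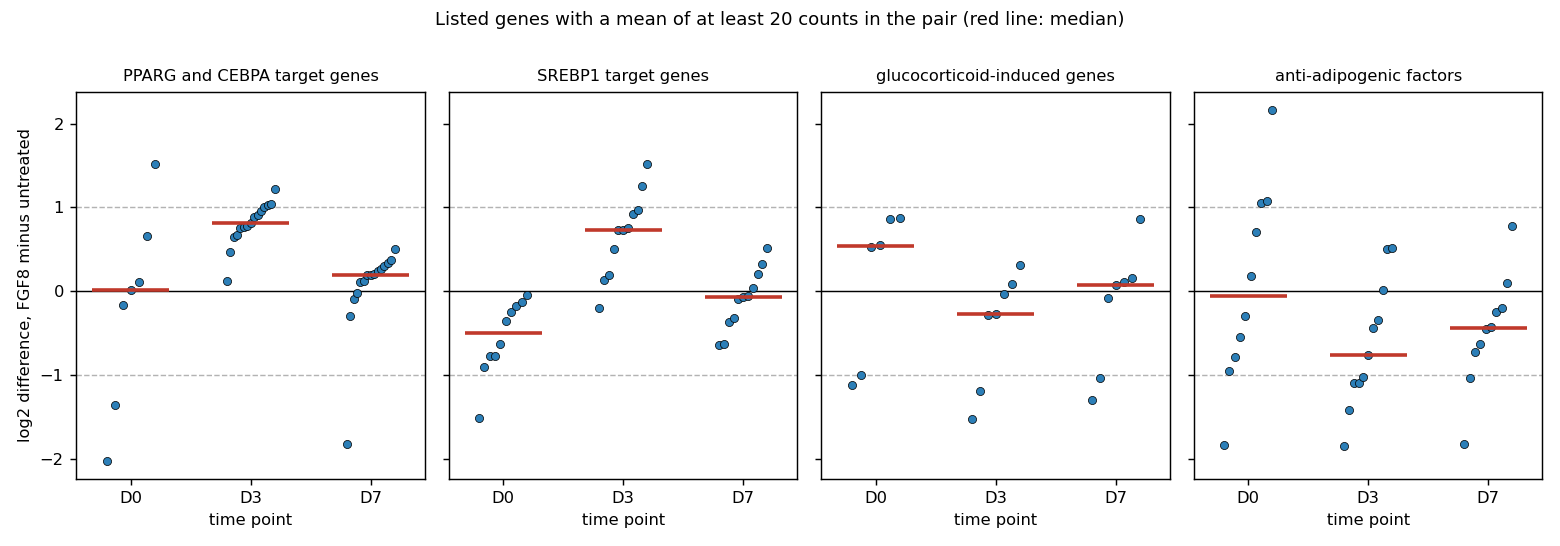
Log2 difference, FGF8 minus untreated, of each listed gene with a mean of at least 20 normalised counts at D0, D3 and D7; red lines are medians and dashed lines mark 2-fold. The PPARγ and C/EBPα targets lie between 0.12 and 1.22 at D3, and the anti-adipogenic factors have a median of -0.76 there.

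Over the 6 libraries, the genes whose log2 profile came closest to each member were found among 11381 other genes with a mean of at least 100 normalised counts, by the root-mean-square distance between centred profiles. For Klf4 these included Tle6 (0.217), and they were for Cebpd Pcdh1 (0.407) and Lhx8 (0.416), and for Klf15 Osgin1 (0.418) and Nr2f1 (0.426). Tle6 had 261, 246 and 127 normalised counts in untreated and 94.7, 66.0 and 37.4 in FGF8 cells. Pparg was nearest to Esrra (0.144) and Acadm (0.154), Cebpa to Pcx (0.296) and Popdc3 (0.399), Cebpb to Jak3 (0.124) and Pdhb (0.197), and the genes near Srebf1 included Glrx5 (0.109). Klf5 was nearest to Ebpl (0.197) and Gnb4 (0.203), Ebf1 to Ercc5 (0.0977) and Igfbp4 (0.120), and Zfp423 to Thrb (0.171) and 4930413G21Rik (0.219). Among the members the closest pairs were Cebpa with Zfp423 (0.514), Pparg with Cebpb (0.559) and Cebpd with Klf15 (0.657). All distances rest on 6 points that share their libraries.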

How the data were processed

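Bulk RNA of 6 cultures, 1 per treatment and time point, was sequenced. The authors trimmed reads with TrimGalore, aligned them to GRCm39 (mm39) with HISAT2 and counted them per gene with featureCounts, and the deposited values are raw counts. The versions, annotation and strand setting are not given in the sources used here. Groups came from the sample titles.

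Counts were scaled by median-of-ratios size factors (DESeq2 1.42.0), and pairs of libraries were compared as differences of log2(normalised count + 1) with 95% Clopper-Pearson intervals of the count ratio. A gene was counted as different at 2-fold or more with a mean of at least 20 normalised counts in the pair. For shared effects edgeR 4.0.16 (quasi-likelihood test) was fitted to the counts (day plus treatment, TMM, filterByExpr, Benjamini-Hochberg over 13868 genes, adjusted p under 0.05, 2 residual degrees of freedom), and SEs were derived from F. Both steps were run on simulated counts with planted changes, a check of the code and not of the calls made here. The untreated and FGF8 differences of a day share libraries with the day comparisons.

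All 10 members were named, with the 2 nearest profiles of each (mean of at least 100) and, from each gene list, the genes with the largest differences. The result of 1 nearest profile each for Klf4 and Srebf1 is not reported here. Fkbp5, Zbtb16, Fabp4, Fasn, Insig1, Cebpg, Ebf4, Klf8 and Klf12, with others named to complete a count of 5 or fewer, were picked as examples after their values were seen. The members and lists were chosen with earlier results of these data known. Of the symbols, 23897 (91.0%) matched GENCODE M39. Alternatives were TMM, total-count and within-pair scaling, a pseudocount of 0.5 or 5, a minimum mean of 100 or none, 1.5- and 4-fold rules, median-of-ratios factors or no filter in edgeR, DESeq2's Wald test, and leaving out each library. The work used Python 3.11.15 with pandas 2.3.3 and scipy 1.17.1, and R 4.3.3.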

Additional observations from a re-analysis of the deposited data

Results flagged for a closer look

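In 5 members the FGF8 library lay on the other side of the untreated one at a later time point than at D0, and the counting interval of each difference excluded 0. Pparg was at -0.59 at D0, 0.69 at D3 and 0.35 at D7 on the log2 scale. Cebpa was at -0.54, 0.48 and 0.22 at the same time points. Zfp423 was at -1.50, 0.51 and 0.18, with 16 and 6 reads behind the D0 value. Klf15 turned the other way, from 0.73 at D0 to -0.31 at D3 and -1.29 at D7. Ebf1 was at -0.85 at D0, -0.23 at D3 and 0.15 at D7. With 1 library per condition these changes of direction between time points were not tested. No group held enough libraries to look for a library apart from its group.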

How the results depend on the processing

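Counts of members past 2-fold between FGF8 and untreated cells changed mainly with the fold rule. At D0 the 1 higher member became 0 with size factors within the pair, 2 at 1.5-fold and 0 at 4-fold, and the 1 lower member became 2 without the filter on low counts (Zfp423 joined), 3 at 1.5-fold and 0 at 4-fold. At D3 3 members were higher at 1.5-fold and 1 was lower at 4-fold, and at D7 0 were lower at 4-fold. Between D3 and D7 in untreated cells 1 member was higher and 4 were lower at 1.5-fold, and 0 were lower at 4-fold. In FGF8 cells 5 members were higher and, at 1.5-fold, 2 lower at D3 than at D0, the 5 being past 4-fold. In edgeR's shared FGF8 effect, where 152 genes were called, median-of-ratios factors called 0 genes and 0 members, no filter called 419 genes and DESeq2 1703, and leaving out a library gave 0 to 2215 genes and 0 to 2 members. The 0 came without any 1 of the D3 or D7 libraries, the higher counts without a D0 library. For D3 against D0 leaving out a library gave 1136 (without the FGF8 D3 library) to 8024 genes and 0 to 1 members called lower. For D7 against D3, where 9 genes were called, no filter called 268 genes and DESeq2 1334 with 3 members lower, and leaving out a library gave 0 to 2992 genes, 0 to 1 members called higher and 0 to 3 called lower.

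Members with small fitted changes turned direction, none of them past the threshold. With a library left out the shared FGF8 effect ran from -0.13 to 0.50 for Pparg, -0.17 to 0.33 for Cebpa, -0.80 to 0.17 for Klf15 and -0.40 to 0.32 for Zfp423, which DESeq2 put at -0.040, and the change from D3 to D7 ran from -0.54 to 0.11 for Srebf1, -0.63 to 0.026 for Ebf1 and -0.49 to 0.39 for Zfp423. The cause of these differences was not tested. Leaving out a library leaves its time point with a lone sample, which is fitted by its own day term. The shared FGF8 effect then rests on the remaining time points, whichever library of the pair was left out. The fit pairs untreated and FGF8 libraries by day, and replicate numbers gave no further block because each condition has a single library. Depth limits Klf5 at D3 and D7 and Zfp423 at D0, where counting intervals are widest.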
